A study of Mus musculus with 10 samples.

Results

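Phase II conjugation enzymes attach a polar group to drugs, hormones, bile pigments and reactive lipid products, so that these can leave the cell and the body. Glucuronosyl transferases (*Ugt*) use glucuronic acid, glutathione transferases (*Gst* and the membrane-bound *Mgst*) use glutathione, and sulfotransferases (*Sult*) use sulfate. In the colon they act mostly in epithelial cells, which meet compounds from the diet and from bacteria, and many of them are induced by the factors Nrf2, AhR, PXR and CAR. The genes described here were taken by symbol from the 10 families *Ugt1a*, *Ugt2a*, *Ugt2b*, *Gsta*, *Gstm*, *Gstp*, *Gstt*, *Gsto*, *Mgst* and *Sult*. This gave 64 of the 56691 genes in the table, after 7 pseudogenes had been left out.

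Expression was measured by RNA sequencing of colon from male C57BL/6 mice aged 8 weeks, 5 per group. Dextran sulfate sodium (DSS), which injures the colon epithelium, was given to every mouse at 3% for 7 days. The DSS group (DSS-1 to DSS-5) had no further agent named, and the ceAF group (ceAF-1 to ceAF-5) was then gavaged with chick early amniotic fluid at 15 mL/kg over 10 days. Whether the DSS group was gavaged with a vehicle, and on which day each group was sampled, is not given in the sources used here. Untreated mice were not analysed here. The libraries held between 14676471 (ceAF-1) and 19901549 (DSS-2) counts on genes.

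The colon origin of the samples was checked on marker genes. All 10 epithelial markers were tested, their summed level lay between 6941 FPKM (DSS-5) and 9647 FPKM (DSS-4), and the most abundant was *Krt8* with a mean of 2178 FPKM. FPKM is the count scaled by exonic length and library size, so that levels of different genes can be compared. Pancreas markers summed to at most 0.25 FPKM in any mouse, with *Prss1* and *Amy2a5* at 0 counts, and liver markers to at most 19.2 FPKM, most of it *Ttr*. Small intestine markers ran from 7.3 FPKM (DSS-5) to 132.5 FPKM (DSS-2), with 79.2 FPKM in ceAF-1, and *Fabp6* was the most abundant, with a mean of 21.8 FPKM. Some libraries stood apart. On the first principal component of the tested phase II genes, which held 72.3% of their variance, ceAF-1 lay at 6.53 and DSS-5 and DSS-1 at −6.11 and −5.47, with the other mice between −3.03 and 3.73. The log2 levels were not scaled per gene, so genes with a large spread weigh most in this component. The SD over the mice was 2.97 for *Ugt2b5* and 2.16 for *Ugt2b36*, against a median of 0.565 over the tested phase II genes. The neutrophil markers summed to 2781 FPKM in DSS-1 and to at most 620 FPKM in any other mouse. The *Hox* genes of the proximal colon, *Hoxb5* to *Hoxb8*, summed to 88.7 FPKM in ceAF-1, to between 18.4 and 43.4 FPKM in DSS-2, DSS-3, DSS-4 and ceAF-3, and to between 1.95 and 4.34 FPKM in the remaining mice. Such lists move with the share of a cell type or of a colon segment in the piece of tissue, and in bulk RNA fewer cells of a type cannot be told apart from less RNA per cell.

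Of the 64 genes, 34 had enough counts to be tested. A further 17 had some counts, with at most 114 over the 10 mice together, and 13 had 0 counts in every mouse. With 3 counts as the limit that a count of 0 allows, these 13 lay under 0.150 to 0.229 CPM (the count scaled to library size) per mouse, which covers counting error only. The 13 were *Sult2a1* to *Sult2a8*, *Sult3a1*, *Sult3a2*, *Sult1e1*, *Ugt1a9* and *Ugt2a3*, among them the hydroxysteroid sulfotransferases of the liver and the estrogen sulfotransferase gene *Sult1e1*.

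Summed per mouse, the phase II genes averaged 1408 ± 299 FPKM over the DSS mice and 1592 ± 302 FPKM over the ceAF mice (SD, n = 5). The groups overlapped, with the lowest sum in DSS-1 (1052 FPKM) and the highest in ceAF-1 (2023 FPKM). The 3 *Mgst* genes held on average 32.0% of the summed FPKM and the *Sult* genes 22.7%. In summed CPM, which is not divided by length, the order was another, with 26.1% for *Sult*, 23.8% for *Mgst*, 15.9% for *Ugt2b* and 13.1% for *Gsto*. Of the summed FPKM *Gsto* held 13.1%, almost all of it *Gsto1*, and *Gstm*, *Ugt2b* and *Gstp* held 9.98%, 7.84% and 7.41%. *Gsta*, *Ugt1a* and *Gstt* were each under 4% of the sum, and *Ugt2a* was near 0.

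**Figure D1:**
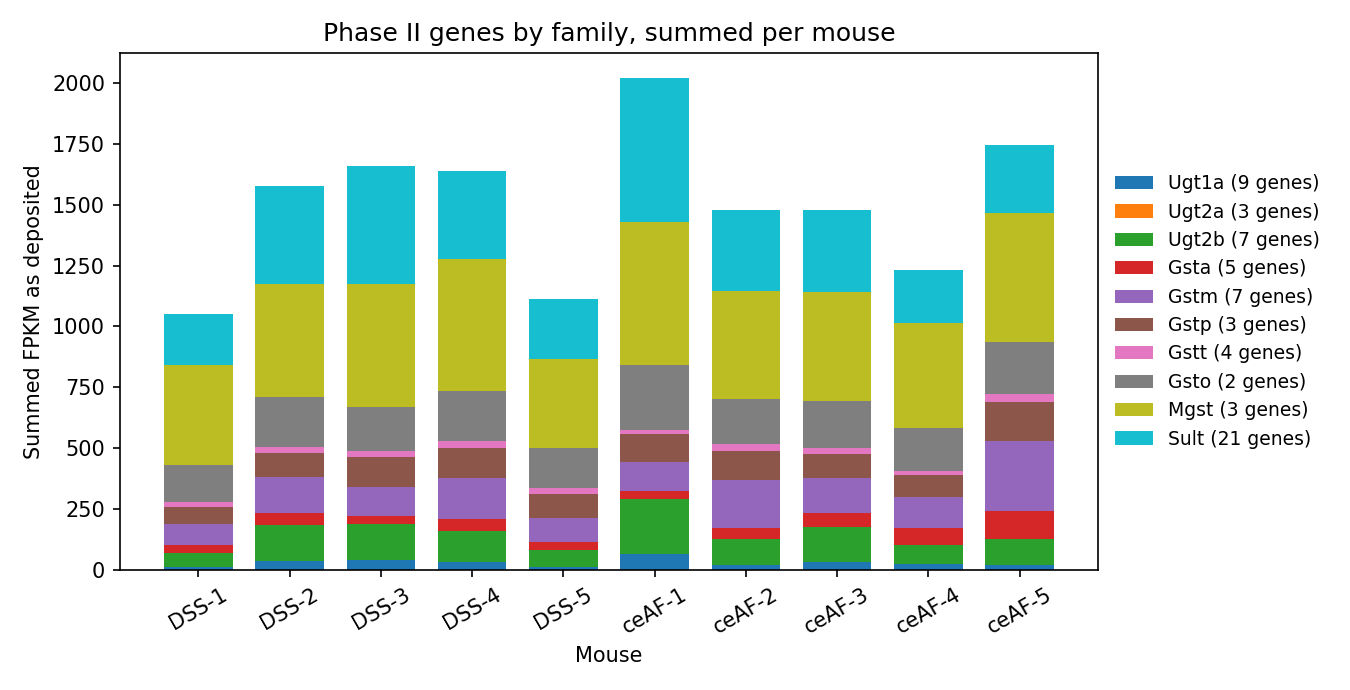
Summed FPKM, as deposited, of the phase II genes of each family (bar segments) in each of the 10 mice. The *Mgst* segment is the largest except in ceAF-1, where *Sult* reaches 592.1 FPKM against 588.7 FPKM for *Mgst*, and the whole bars run from 1052 FPKM in DSS-1 to 2023 FPKM in ceAF-1.

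The highest single gene by FPKM in every mouse was *Mgst3*, a microsomal enzyme that conjugates glutathione and reduces lipid peroxides. Its level was 328.5, 334.4, 378.4, 408.6 and 256.9 FPKM in DSS-1 to DSS-5 and 434.8, 354, 352.8, 316.9 and 377.6 FPKM in ceAF-1 to ceAF-5. The groups overlapped, with DSS-5 lowest and ceAF-1 highest. In CPM, which is not divided by length, *Ugt2b34* and *Gsto1* had higher means than *Mgst3*, at 476.6, 397.1 and 391.4 CPM. *Gsto1*, an omega class enzyme that reduces dehydroascorbate, followed by FPKM with 182 ± 24.8 FPKM over the DSS mice and 207 ± 35.5 FPKM over the ceAF mice (SD, n = 5). *Sult1d1*, *Ugt2b34* and *Sult1b1* had mean levels of 125, 109 and 105 FPKM over the 10 mice. Their order cannot be settled, because *Sult1d1* alone ran from 62.3 to 239.5 FPKM between mice.

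The question the groups address is how the colon after DSS differs with ceAF. Among the 34 tested phase II genes, 27 had a positive log2 fold change of ceAF over DSS, with a median of 0.20, while 51.4% of all tested genes were positive, with a median of 0.0076. *Gsta3* and *Gstm1* had the smallest p-values and were higher in the ceAF group, and neither passed the adjusted limit. A gene was called at an adjusted p under 0.05, Benjamini-Hochberg over the 16545 genes tested by edgeR's quasi-likelihood method, together with a log2 fold change of 1 or more, up or down. By this rule 0 genes (0%) were called, phase II genes included, while DESeq2's Wald test called 28 genes and limma-trend on the FPKM values 1 or 5, with 0 phase II genes among them. At an unadjusted p under 0.05 there were 2 of the 34 phase II genes, *Gsta3* and *Gstm1*, and 1146 of all tested genes (6.93%), of which 539 were higher in the ceAF group (3.26%). The groups did not overlap in 0 of the 34 genes and in 205 of all tested genes (1.24%). An exact permutation p under 0.05 was found for 1 of the 34 and for 6.76% of all tested genes.

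Single mice moved these counts. Without ceAF-1, 5 phase II genes had an unadjusted p under 0.05, all higher in the ceAF group, beside 5.21% of all tested genes in that direction. They were *Gsta3*, *Gsta4*, *Gsta5*, *Gstm1* and *Gstm6*, of which *Gsta5* had too few counts to be tested with all mice. *Gsta3* alone was under that limit without DSS-1, DSS-3, DSS-5 or ceAF-5. In these fits 4.26%, 6.17%, 9.59% and 5.76% of all tested genes were under it in either direction. Positive values were found in 24 of 35 tested phase II genes without ceAF-1 and in 33 of 34 without ceAF-4. Of all tested genes, 48.8% and 53.5% were positive in these 2 fits. The median log2 fold change of the phase II genes was 0.084 without DSS-1 and 0.11 without ceAF-1, beside 0.017 and −0.0076 over all tested genes. It was between 0.30 and 0.32 without DSS-2, DSS-3, DSS-4 or ceAF-4, beside 0.010 to 0.020 over all tested genes. Over all tested genes, 712 were under the unadjusted limit without DSS-1 and 1872 without ceAF-1. Many of the 34 genes vary together between mice, so their number is not a number of independent observations.

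*Gsta3* (ENSMUSG00000025934) encodes an alpha class glutathione transferase known for conjugating aflatoxin epoxide and for its induction through Nrf2. In the table, whose genome build is not named, it lies on the forward strand of chromosome 1 from 21310813 to 21335885. Its TMM-normalized CPM, corrected for library composition, was 10.4, 20.3, 15.03, 17.7 and 13.9 in DSS-1 to DSS-5. In ceAF-1 to ceAF-5 it was 13.6, 37.9, 33.9, 32.0 and 65.5. In 4 of the 5 ceAF mice it was above every DSS mouse, while ceAF-1 lay within the DSS range and ceAF-5 lay highest of all. The group means were 15.5 ± 3.76 and 36.6 ± 18.7 CPM (SD, n = 5), a log2 fold change of 1.24 (standard error 0.34). By edgeR's quasi-likelihood method this gave an unadjusted p of 0.00374 and a Benjamini-Hochberg adjusted p of 0.656. The exact two-sided permutation test over all assignments of 5 of the 10 mice gave p = 0.0397, and 1119 of all tested genes were likewise under 0.05. Without ceAF-5 the log2 fold change was 0.93 and without ceAF-1 it was 1.46, and the unadjusted p stayed under 0.05 whichever mouse was left out. No stretch of 100 bases of its annotated transcripts occurred in another gene.

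*Gstm1* (ENSMUSG00000058135), the mu class gene with the highest FPKM, lies in a row with *Gstm2*, *Gstm3* and *Gstm6* on the reverse strand of chromosome 3, itself from 107919571 to 107925289. Its level was 51.6, 103, 75.1, 132 and 63.8 TMM-normalized CPM in DSS-1 to DSS-5 and 105, 149, 103, 103 and 230 in ceAF-1 to ceAF-5. All ceAF mice were near or above the second highest DSS mouse, but DSS-4 lay above 3 of them. Its log2 fold change was 0.70 (standard error 0.30), with an unadjusted p of 0.0390 and a Benjamini-Hochberg adjusted p of 0.704 by edgeR's quasi-likelihood method. The exact permutation p was 0.0714. The unadjusted p of edgeR was 0.0796 without DSS-1, 0.0724 without DSS-3, 0.0805 without DSS-5, 0.0636 without ceAF-2 and 0.126 without ceAF-5. The log2 fold change was 0.44 without ceAF-5.

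The next smallest p-values belonged to *Gstm3*, *Gsta4*, *Gsta1*, *Gstm6*, *Gsto1* and *Sult6b1*, all with overlapping groups. *Gstm3* averaged 17.7 ± 8.61 CPM over the DSS mice and 29.2 ± 7.43 CPM over the ceAF mice (SD, n = 5), and DSS-1 and DSS-5 were the lowest mice. Its log2 fold change was 0.72 (standard error 0.33) with an exact permutation p of 0.0635. The unadjusted p of edgeR was 0.0505, and it was 0.0489 with RLE scaling and 0.0553 with the replicate number as a block. *Gsta4*, whose enzyme conjugates the lipid peroxidation product 4-hydroxynonenal, was between 14.5 and 24.1 CPM in the DSS mice. In the ceAF mice it was 17.8, 16.7, 22.3, 45.6 and 31.0 CPM in ceAF-1 to ceAF-5, so that ceAF-4 and ceAF-5 lay above the DSS range and the others within it. Its log2 fold change was 0.52, and 0.25 without ceAF-4. *Gsta1* stood out in ceAF-5, with 60.8 CPM against 12.9 to 30.7 CPM in the other mice, and its log2 fold change of 0.63 was 0.20 without ceAF-5. Its counts are uncertain, since 80.6% of the 100-base stretches of its transcripts also occur in *Gm3776*, *Gsta2* or *Gm10639*. Among the named genes, ceAF-5 was the highest mouse in *Gsta1*, *Gsta3*, *Gstm1*, *Gstm2*, *Gstm3*, *Gstm6*, *Gstp1* and *Gstt2*.

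**Figure D2:**
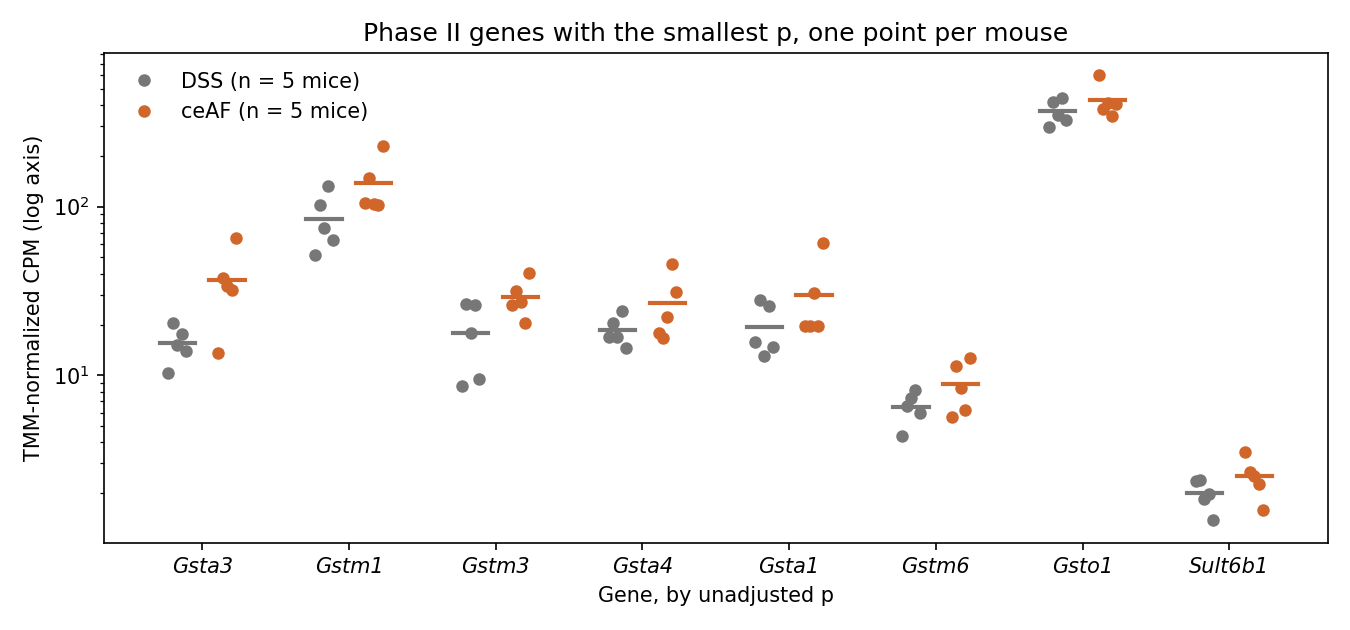
TMM-normalized CPM (log axis) of the 8 phase II genes with the smallest unadjusted p, with 1 point per mouse and a line at the mean of each group of 5 mice. *Gsta3* has 4 ceAF mice above all DSS mice and ceAF-1 at 13.6 CPM among them, and in the other genes the groups overlap more.

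The remaining glutathione transferases differed by less than their spread. *Gstp1*, the pi class enzyme abundant in many epithelia, averaged 74.6 ± 16.9 FPKM over the DSS mice and 87.1 ± 26.7 FPKM over the ceAF mice (SD, n = 5). *Gstp2* lies next to it on chromosome 19 and shares 46.9% of its 100-base stretches with *Gstp1* or a pseudogene, so the split between them is uncertain. *Gstm2* had log2 fold change 0.31 (standard error 0.32), which was 0.13 without ceAF-5 and 0.50 without ceAF-4. Of the theta class, *Gstt3* had the smallest spread of the 34 genes, between 34.0 and 50.9 CPM over the 10 mice, and *Gstt2* lay between 22.4 and 42.1 CPM. *Mgst1*, found in the endoplasmic reticulum and the outer mitochondrial membrane, averaged 139 ± 41.0 CPM over the DSS mice and 132 ± 41.0 CPM over the ceAF mice (SD, n = 5). *Gsto2*, beside *Gsto1* on chromosome 19, was too low to be tested, at up to 0.32 FPKM.

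Promoters were taken from RefSeq (GRCm38.p6), where 56 of the 64 genes had 67 entries. The gene positions printed in this report are as deposited and differ from that build. They cannot be set beside the promoter positions. The core of the antioxidant response element, TGACNNNGC on either strand, was in 4 of these 67 promoters (5.97%) and in 12.4% of all promoters in the table. The genes were *Gsta3*, *Gstm5*, *Gstm7* and *Mgst1*. The core of the AhR response element, GCGTG on either strand, was in 20.9% of the 67 and in 32.4% of all promoters, *Gstm1* among them. The stretch of the *Gsta3* promoter is shown because this gene had the smallest p of the 34. It lies on the forward strand at chr1:21240439-21240497 and has the TGACNNNGC match in capitals, at positions −121 to −113 from the annotated start:
Gsta3: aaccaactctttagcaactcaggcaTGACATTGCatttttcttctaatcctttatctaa
A match is a string of letters in the window, and binding was not measured.

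The *Ugt1a* genes form a single locus on chromosome 1, in which each gene has its own first exon and all 9 share the last 4 exons. Between 50.4% and 77.4% of the 100-base stretches of each gene's transcripts occurred in another gene. The join is shown for 3 of them, since only the part before it tells the genes apart. Capitals mark the start of the first common exon, at chr1:88215044-88215063 in GENCODE M21 (GRCm38, forward strand), and small letters the end of the exon before, at chr1:88212852-88212871 in *Ugt1a1*, chr1:88139312-88139331 in *Ugt1a6a* and chr1:88071659-88071678 in *Ugt1a9*:
Ugt1a1: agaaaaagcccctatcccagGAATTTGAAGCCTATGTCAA
Ugt1a6a: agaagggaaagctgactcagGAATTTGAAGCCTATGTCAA
Ugt1a9: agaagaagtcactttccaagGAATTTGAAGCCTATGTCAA
*Ugt1a9* had 0 counts in every mouse although 58.5% of its stretches are shared, among others with *Ugt1a7c*, which had counts in every mouse. How reads in the common exons were assigned is not given in the sources used here, so the levels of single *Ugt1a* genes are uncertain, and their sum as well where shared reads were left out.

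*Ugt1a7c*, *Ugt1a1* and *Ugt1a6a* were the *Ugt1a* genes with enough counts, and the other 6 had at most 20 counts over the 10 mice. *Ugt1a1* encodes the enzyme that conjugates bilirubin. It had 6.14, 34.3, 41.3, 28.4 and 3.36 TMM-normalized CPM in DSS-1 to DSS-5 and 84.2, 7.88, 20.5, 16.7 and 5.99 CPM in ceAF-1 to ceAF-5. High and low mice occurred in both groups, and its log2 fold change was 0.25 (standard error 0.81). *Ugt1a6a*, whose enzyme conjugates simple phenols, was highest in ceAF-1 as well, with 49.7 CPM against 2.58 to 18.5 CPM in the other mice. Without ceAF-1 the log2 fold change of *Ugt1a1* was −0.83 and that of *Ugt1a6a*, 0.70 with all mice, was −0.060. The *Ugt1a* genes summed as 1 locus had a log2 fold change of 0.39 (standard error 0.45), beside a median of 0.36 over the 3 tested genes.

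*Ugt2b5* (ENSMUSG00000054630), on the reverse strand of chromosome 5 from 87272819 to 87288177, had the largest spread of the 34 genes. The SD of its log2 level over the 10 mice was 2.97, and 9 of all tested genes had a larger one. In DSS-1, DSS-5, ceAF-2 and ceAF-5 it had only 4, 5, 9 and 7 counts. This SD and its rank thus depend on counting error and on the prior count of 1 used for log2 levels. The median SD was 0.565 for the 34 genes and 0.33 for all tested genes. *Ugt2b5* had 0.232, 25.03, 24.5, 16.3 and 0.300 TMM-normalized CPM in DSS-1 to DSS-5 and 60.2, 0.586, 11.1, 2.03 and 0.385 CPM in ceAF-1 to ceAF-5. DSS-2, DSS-3, DSS-4, ceAF-1 and ceAF-3 were the 5 highest mice. Of its 100-base stretches 24.7% also occur in *Ugt2b38* or *Ugt2b37*, which had 3 counts and 1 count over the 10 mice. *Hoxb6*, a marker of the proximal colon, had its 5 highest values in the same mice, with 25.3, 36.6, 22.4, 91.0 and 17.4 CPM. In the other mice *Hoxb6* lay between 0.846 and 2.98 CPM. *Ugt2b36* was also highest in these mice, from 1.92 CPM in ceAF-3 to 6.56 CPM in ceAF-1, and at most 0.477 CPM in the others, with 0 to 8 counts each. The proximal list had 4 of 4 genes tested, 0 with an unadjusted p under 0.05, and *Hoxb6* as its most abundant gene. Genes of other lists were also highest in these mice. *Car1*, of the surface colonocyte list, had 3749, 6393, 3781, 8530 and 2598 FPKM in DSS-2, DSS-3, DSS-4, ceAF-1 and ceAF-3 and at most 931 FPKM in the others. The list's sum had the same 5 highest mice through *Car1*, while *Car4* was highest in DSS-5 and *Aqp8* and *Slc26a3* were lowest in ceAF-1. The PXR and CAR targets summed to 706.8, 1228, 829.2, 1807 and 544.2 FPKM in these mice and to at most 260.5 FPKM in the others. *Cyp2c55*, with a mean of 377.4 FPKM over the 10 mice, weighs most in this sum of 6 genes. The sum does not show that each of them was high in these mice. *Ugdh* and *Papss2*, which make the donors of glucuronic acid and sulfate, were likewise highest in these mice. The part of colon segment or of these genes in the spread of *Ugt2b5* was not tested. The distal marker *Hoxb13* was lowest in ceAF-1 and ceAF-4, at 6.18 and 10.2 CPM, and at least 76.3 CPM in the other mice. The whole distal *Hox* list set ceAF-4 less far apart. It summed to 6.27 FPKM in ceAF-1, to 43.28 FPKM in ceAF-4 and to at least 64.06 FPKM in the other mice. *Ugt2b5* had a log2 fold change of 0.15 (standard error 1.37), which was −1.91 without ceAF-1, and *Ugt2b36* went from 0.35 to −0.99. *Hoxb6*, *Hoxb13*, *Car1*, *Ugdh* and *Papss2* were set beside them after the values had been seen.

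**Figure D3:**
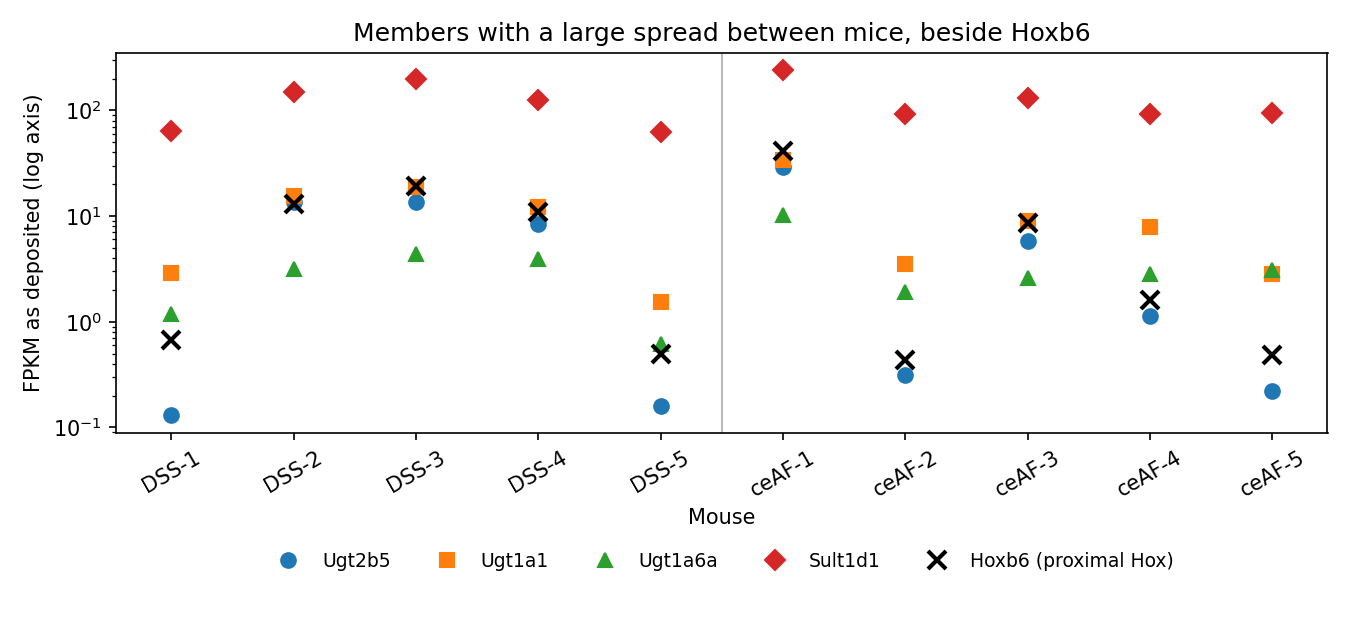
FPKM as deposited (log axis) of *Ugt2b5*, *Ugt1a1*, *Ugt1a6a*, *Sult1d1* and of the proximal marker *Hoxb6* in each of the 10 mice, DSS mice left of the line and ceAF mice right of it. *Ugt2b5* runs from 0.13 FPKM in DSS-1 to 28.9 FPKM in ceAF-1, and *Hoxb6* is high in the same 5 mice.

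The promoters of *Ugt2b5* and *Ugt2b36* are shown because the pair varied alike between mice. Upstream of the start they share a run of 24 bases, in capitals, at positions −28 to −5 in *Ugt2b5* and −31 to −8 in *Ugt2b36*. The stretches lie on the reverse strand at chr5:87140341-87140400 and chr5:87092556-87092615 (RefSeq, GRCm38.p6):
Ugt2b5: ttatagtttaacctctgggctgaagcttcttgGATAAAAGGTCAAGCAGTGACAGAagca
Ugt2b36: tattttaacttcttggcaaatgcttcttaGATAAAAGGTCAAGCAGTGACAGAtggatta
The run was looked for after the values had been seen. It was in 3 promoters of the whole table, the third being that of *Ugt2b37*, which had 1 count over the 10 mice. Neither stretch holds TGACNNNGC or GCGTG.

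By FPKM, *Ugt2b34* was the highest glucuronosyl transferase gene, with 98.3 ± 33.7 FPKM over the DSS mice and 119 ± 42.8 FPKM over the ceAF mice (SD, n = 5). It was lowest in DSS-1 and DSS-5, at 55.4 and 68.8 FPKM, and highest in ceAF-1, at 187 FPKM. *Ugt2a1* and *Ugt2a2*, known from the olfactory epithelium, had 1 and 2 counts over the 10 mice.

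Among the sulfotransferases 7 of 21 genes were tested. *Sult1d1*, whose enzyme sulfates catecholamines, had 151, 368, 473, 324 and 151 TMM-normalized CPM in DSS-1 to DSS-5 and 659, 231, 335, 216 and 218 CPM in ceAF-1 to ceAF-5. It was highest in ceAF-1 and lowest in DSS-1 and DSS-5, and without ceAF-1 its log2 fold change went from 0.18 to −0.23. *Sult1b1*, an enzyme for thyroid hormones and phenols, lies near it on chromosome 5 but varied little, between 214 and 359 CPM. *Sult6b1* was low, between 1.38 and 3.51 CPM. The median log2 fold change of the 7 genes was 0.031.

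The 11 lists of genes around conjugation held 67 tested genes, of which 3 were higher and 1 was lower in the ceAF group at an unadjusted p under 0.05, beside 6.93% of all tested genes in either direction. The 3 were *Gclm*, the modifier subunit of the enzyme that starts glutathione synthesis, and the Nrf2 targets *G6pdx* and *Cbr3*. In the glutathione supply list, to which *Gclm* belongs, 3 genes had positive and 4 had negative log2 fold changes, with a median of −0.046. Its most abundant gene was *Gsr*, with a mean of 56.2 FPKM. Among the Nrf2 targets outside the families 6 were positive and 2 negative. *G6pdx*, which supplies NADPH, had 62.9, 81.4, 69.0, 76.4 and 63.4 CPM in DSS-1 to DSS-5 and 80.5, 102, 111, 83.5 and 90.0 CPM in ceAF-1 to ceAF-5. Of the ceAF mice only ceAF-1 lay below the highest DSS mouse. Log2 fold changes were 0.40 ± 0.12 for *G6pdx*, 0.63 ± 0.20 for *Gclm* and 1.16 ± 0.46 for *Cbr3* (standard errors), with Benjamini-Hochberg adjusted p-values of 0.656, 0.656 and 0.694 by edgeR. *Cbr3* was highest in ceAF-5, at 114 CPM, as *Gsta3* was. *Nqo1*, another Nrf2 target, had a log2 fold change of 0.65 ± 0.30, while *Srxn1*, the most abundant gene of that list, had −0.034 ± 0.17. The Nrf2 gene itself, *Nfe2l2*, averaged 60.4 FPKM over the DSS mice and 62.0 FPKM over the ceAF mice. *Ugdh*, which makes UDP-glucuronic acid, was highest in ceAF-1, at 179 FPKM, and lowest in DSS-1 and DSS-5, at 28.7 and 30.2 FPKM. *Alox5ap*, a relative of the *Mgst* genes in leukocytes, was the gene that was lower, with 75.5 CPM in DSS-1 and at most 9.52 CPM in any other mouse. No gene had an unadjusted p under 0.05 among the 13 regulators, 7 genes of conjugate export, 3 of conjugate cleavage, 4 of UDP-glucuronate supply and 5 of sulfate donor supply, 10 other conjugation enzymes, 4 PXR and CAR targets and 2 AhR targets tested. *Cyp2c55* was the most abundant PXR and CAR target.

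Of the cell type lists, 0 of 10 epithelial, 0 of 7 surface colonocyte and 0 of 6 proliferating crypt genes had an unadjusted p under 0.05 by edgeR, and 1 of 8 goblet cell genes did, *Tff3*, with a log2 fold change of −0.67. The epithelial gene *Elf3* had a log2 fold change of −0.33, with an unadjusted p of 0.0523 by edgeR and an exact permutation p of 0.0238. The epithelial sum was 8392, 8786, 8644, 9647 and 6941 FPKM in DSS-1 to DSS-5 and 8023, 9389, 8850, 8420 and 9024 FPKM in ceAF-1 to ceAF-5. The lowest epithelial sum was thus in DSS-5, and the groups overlapped. All 6 crypt genes had positive log2 fold changes, with a median of 0.39, and *Pcna* was the most abundant. The crypt sum was 43.8, 54.5, 50.7, 50.8 and 55.03 FPKM in DSS-1 to DSS-5 and 33.7, 56.6, 63.9, 62.4 and 84.6 FPKM in ceAF-1 to ceAF-5. As in *Gsta3*, 4 ceAF mice lay above every DSS mouse and ceAF-5 was highest, while ceAF-1 was the lowest of all. *Mki67* also had 4 ceAF mice above every DSS mouse, and the other 5 genes of the list did not. Markers of immune cells were lower in the ceAF group at that limit in 4 of 7 T cell genes, 5 of 6 tested neutrophil genes and 2 of 6 macrophage genes, beside 607 of all tested genes (3.67%). *Skap1* had the smallest p of the T cell list, with a log2 fold change of −1.46. The T cell list, with *Cd2* most abundant, summed to 15.97, 9.48, 9.9, 10.2 and 3.94 FPKM in DSS-1 to DSS-5 and to 2.58, 7.33, 6.75, 3.16 and 4.99 FPKM in ceAF-1 to ceAF-5, so that DSS-5 lay among the ceAF mice. The macrophage list, with *C1qa* most abundant, ran from 54.8 to 106.5 FPKM in the DSS mice and from 22.2 to 71.4 FPKM in the ceAF mice. The neutrophil list, with *Ly6g* most abundant, summed to 2781, 134, 416.3, 206.2 and 620.1 FPKM in DSS-1 to DSS-5 and to 19.6, 261.8, 187, 158.6 and 245.3 FPKM in ceAF-1 to ceAF-5. *Ly6g* itself was highest in DSS-5, at 519 FPKM, and was not under the limit. ceAF-1 was the lowest mouse in these 3 lists and also in the goblet cell, proliferating crypt, B and plasma cell, fibroblast, smooth muscle, liver and distal *Hox* lists, with 1437 FPKM against at least 3835 FPKM in the goblet cell list. It was the highest in the adipocyte and proximal *Hox* lists and in the surface colonocyte list, where *Car1* made 8530 of its 10790 FPKM and *Aqp8* and *Slc26a3* were lowest in it. In the B and plasma cell, fibroblast, smooth muscle, enteric nerve, adipocyte, liver and small intestine lists 0 genes were under that limit, and of the distal *Hox* genes 1 was, *Hoxd13*, at 121 and 109 CPM in ceAF-2 and ceAF-3 and at most 10.5 CPM in the other mice. Besides the pancreas list, no cell type list had a marker at 0 counts in all mice. The part of these lists, the crypt list included, in the values of *Gsta3* and *Gstm1* was not tested.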

How the data were processed

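Colon RNA of 10 mice was sequenced. The submitters' processing notes name cutadapt 1.9.1 and HISAT2 2.2.1; the counting program and genome build are not given in the sources used here. The authors deposited a whole-number count and an FPKM value per gene and mouse; the FPKM is that count divided by exonic length and library total. Genes were filtered with filterByExpr (minimum count 10), scaled by TMM and tested with the quasi-likelihood test of edgeR 4.0.16 in R 4.3.3, two-sided, with Benjamini-Hochberg adjustment over all 16545 genes kept. Standard errors are the log2 fold change divided by the root of its F statistic. Exact permutation tests used all 252 assignments of the mice; their p-values were not adjusted over the phase II genes, although that was planned. Protein sequences were not used here. limma 3.58.1 and DESeq2 1.42.0 served as alternatives, with RLE scaling, other filters, a replicate block and leaving out each mouse. The test was tested on simulated data with 200 genes changed. At an adjusted p under 0.05 alone, it recovered 44.5% of them at a 2-fold change and 81% at a 4-fold change. False calls were 3.26% and 5.81%. The fold change limit of the calling rule was not applied there. Each gene was simulated on its own, without differences that many genes of a mouse share. The share that the full rule would recover in these mice was therefore not measured. Figures were drawn with matplotlib 3.10.9.

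The members and gene lists were chosen with earlier results of these data known. Symbols ending in -ps with a number were left out as pseudogenes. Genes were named by a rule: the 2 most abundant of each family, the 8 with the smallest p, those without overlap of the groups, and those with the 4 largest and 2 smallest spreads. No library was a copy of another from the same group, since chi-square per gene was 14.9 to 152 over the 20 pairs. Assignment of libraries to separate mice follows the labels. Transcript stretches came from GENCODE M21, which held all 64 genes.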

Additional observations from a re-analysis of the deposited data

Results flagged for a closer look

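For 23 named genes and the 10 family sums, the distance of the highest or lowest mouse of a group to the next was divided by the range of that group. Of 66 groups of 5 values examined, 9 were above 0.71. The *Ugt2a* sum was 0 FPKM in every ceAF mouse, so that group had no range to divide by. Chance gives about 1 in 20 in independent groups, but *Ugt2b5*, *Ugt2b36*, *Ugt1a1* and *Ugt1a6a* were named for their large spread and the genes move together, so the 9 cannot be set against a number by chance. ceAF-1 was the highest ceAF mouse in *Ugt1a6a* (0.9), with 49.7 CPM against 12.5 CPM in the next, in *Ugt2b5* (0.821), in *Ugt1a1* (0.814), in *Gsto1* (0.743), with 602 CPM against 409 CPM, in *Sult1d1* (0.731) and in *Ugt2b36* (0.729). The summed *Ugt1a* FPKM was also highest in ceAF-1 (0.712), with 66.3 FPKM against 32.8 FPKM. ceAF-5 was the highest ceAF mouse in *Gsta1* (0.73), with 60.8 CPM against 30.7 CPM. DSS-1 was the lowest DSS mouse in the summed *Gstt* FPKM (0.879), with 18.7 FPKM against 25.6 FPKM. The cause of these values was not tested.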

How the results depend on the processing

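In 389 alternative fits of the 23 tested named genes, 0 passed the adjusted limit, and the sign changed in 18 fits of 9 genes, all with values near 0 or a large spread. With the replicate number as a block the log2 fold change was −0.076 for *Ugt1a1*, −0.17 for *Ugt2b36* and −1.32 for *Ugt2b5*, which was −0.38 and −0.35 in limma-trend on FPKM with pseudocounts of 1 and 0.1. Leaving out a mouse gave −1.91 to 0.53 for *Ugt2b5*, −0.99 to 0.75 for *Ugt2b36*, −0.83 to 0.59 for *Ugt1a1*, −0.060 to 0.96 for *Ugt1a6a*, −0.23 to 0.43 for *Sult1d1*, −0.044 to 0.34 for *Gstp2*, −0.031 to 0.20 for *Gstt2*, −0.15 to 0.016 for *Gstt3* and −0.23 to 0.044 for *Mgst1*. The cause was not tested. *Gsta3* ran from 0.93 to 1.46. Phase II genes at an unadjusted p under 0.05 numbered 1 to 5 when a mouse was left out and 2 or 3 otherwise. The 5, without ceAF-1, include *Gsta5*, which entered that fit mostly through ceAF mice. Of all tested genes, 4.26% to 11.2% and 4.19% to 6.93% were under that limit in these fits. Where there were 3 phase II genes, the third was *Gstm3*. This was so with RLE scaling, in DESeq2, with no filter, in both limma-trend fits and without DSS-2, DSS-4 or ceAF-4. Positive phase II genes were 24 to 33 when a mouse was left out, and 36 in DESeq2 and 39 with no filter, of 51 tested in each. Of all tested genes, 48.8% to 55.3% were positive when a mouse was left out, 51.1% in DESeq2 and 52.3% with no filter. Genes called over the table were 0 to 3 when a mouse was left out (3 without DSS-5), 28 in DESeq2 and 1 and 5 in limma-trend. Genes at an unadjusted p under 0.05 were 712 (without DSS-1) to 1872 (without ceAF-1), 1733 with no filter, where more genes were tested, and 694 with the replicate block. Mice were not paired by replicate number: deviations of mice with the same number correlated at −0.249 to 0.286, and 1 of the 5 numbers correlated best with its own. In summed CPM in place of FPKM *Sult* was first with 26.1%, and the share was 23.8% for *Mgst*, 15.9% for *Ugt2b*, 5.15% for *Gstp*, 3.21% for *Ugt1a* and 2.86% for *Gstt*, since CPM is not divided by length. The 30 genes not tested were under the count filter at this depth, and whether depth was the reason was not tested.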
